A study of Mus musculus with 6 samples.

Results

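Genes named Zfp followed by a number encode mouse zinc finger proteins, and 60 of them could be compared between aortas with and without Sirt2. They were chosen by name alone from a table of gene expression, without Zfp36, with the values of rows sharing a name summed, and with a minimum mean level of 1 FPKM (fragments scaled for transcript length and library size) across the 6 aortas. They make up 60 of the 8605 genes tested. Aortas came from 6 aged mice of the C57BL/6 strain, of which 3 were wild type (WT, numbered 2, 4 and 8) and 3 lacked Sirt2 (Sirt2-KO, numbered 4, 7 and 8), and the deletion of Sirt2, which encodes an NAD-dependent deacetylase, was the one difference named between the groups. The sources used here do not give the age in weeks, the sex of the mice or the kind of deletion allele.

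Most Zfp proteins carry C2H2 zinc fingers, short loops in which a pair of cysteines and a pair of histidines hold a zinc ion, and rows of such fingers read DNA sequence. Many of these proteins also carry a KRAB box, which binds the corepressor Trim28 and through it the histone methyltransferase Setdb1, and this system is best known for silencing retroelements and keeping imprints. Other Zfp proteins have different fingers and bind RNA, such as the CCCH proteins Zfp36l1 and Zfp36l2, which speed the decay of mRNAs with AU-rich elements.

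Sirt2 itself was measured at 26.5, 34.1 and 49.2 FPKM in the WT aortas (replicates 2, 4 and 8) and at 2.56, 3.32 and 2.23 FPKM in the Sirt2-KO aortas (replicates 4, 7 and 8). The groups lay far apart, and Sirt2 fell by 3.31 on the log2(FPKM + 1) scale (SE 0.239, limma adjusted p = 0.00156). The FPKM column sums ran from 367271 to 396438, and the depth of each library is unknown because the files hold no counts. All 8 smooth muscle markers were measured, with sums of 9115 to 17046 FPKM in WT and 7708 to 14035 FPKM in Sirt2-KO, which overlapped. The 8 endothelial markers summed to 338 to 557 FPKM in WT and 289 to 326 FPKM in Sirt2-KO, which lay apart. All 8 of each list had a difference below 0, and 0 passed by limma. The groups lay apart and lower in 2 smooth muscle and 4 endothelial markers (all tested genes 17.3%). An unadjusted p under 0.05 was found in 2 and 3 of the 8 (all tested genes 24.8%). Markers of other tissue also differed: 8 white adipocyte markers summed to 609 to 2362 FPKM in the WT aortas and 4222 to 6315 FPKM in the Sirt2-KO aortas (2 passed the test), 8 adventitial fibroblast markers to 669 to 845 and 1414 to 2544 FPKM (3 passed), and 6 Schwann cell markers to 88.0 to 188 and 48.9 to 50.4 FPKM (2 passed). Summed markers of macrophages (130 to 357 and 384 to 625 FPKM) and of red blood cells (215 to 316 and 400 to 1225 FPKM) were also apart, with 0 markers passing by limma. Groups lay apart and higher in 6 of 8 macrophage and 3 of 4 red blood cell markers (all tested genes 16.0%). An unadjusted p under 0.05 was found in 7 and 3 of them (all tested genes 24.8%). Summed heart muscle markers, of which 2 were at 0 in at least 1 aorta, reached 536 FPKM in WT replicate 4 and 53.0 to 73.6 FPKM in the other 5 aortas. In bulk tissue, fewer cells of a type and less RNA per cell cannot be told apart, and the part of these cell types in the values of the Zfp genes was not tested.

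Zfp385a was the 1 of 60 Zfp genes that passed the test, and it was higher in Sirt2-KO. Over all tested genes 2.91% passed, 2.29% as higher and 0.616% as lower, against 0 of 60 Zfp genes called lower by limma. At an unadjusted p under 0.05 there were 7 Zfp genes (11.7%), 2 higher and 5 lower, against 24.8% of all tested genes. The 3 values of each group lay apart and higher in Sirt2-KO for 3 Zfp genes (5%, all genes 16.0%), lay apart and lower for 10 (16.7%, all genes 17.3%), and overlapped for 47. Separation of 3 values from 3 gives an exact two-sided permutation p of 0.1, the smallest this design allows. The 60 log2 differences ran from -1.07 to 1.02 with a median of -0.12, and 39 of 60 (65%) were below 0. The same median over all tested genes was -0.08, with 57.9% below 0. A difference of at least 0.5 in either direction was found in 9 Zfp genes (15%) and in 26.8% of all tested genes, so large differences were no more common among the Zfp genes than in the table as a whole.

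**Figure D1:**
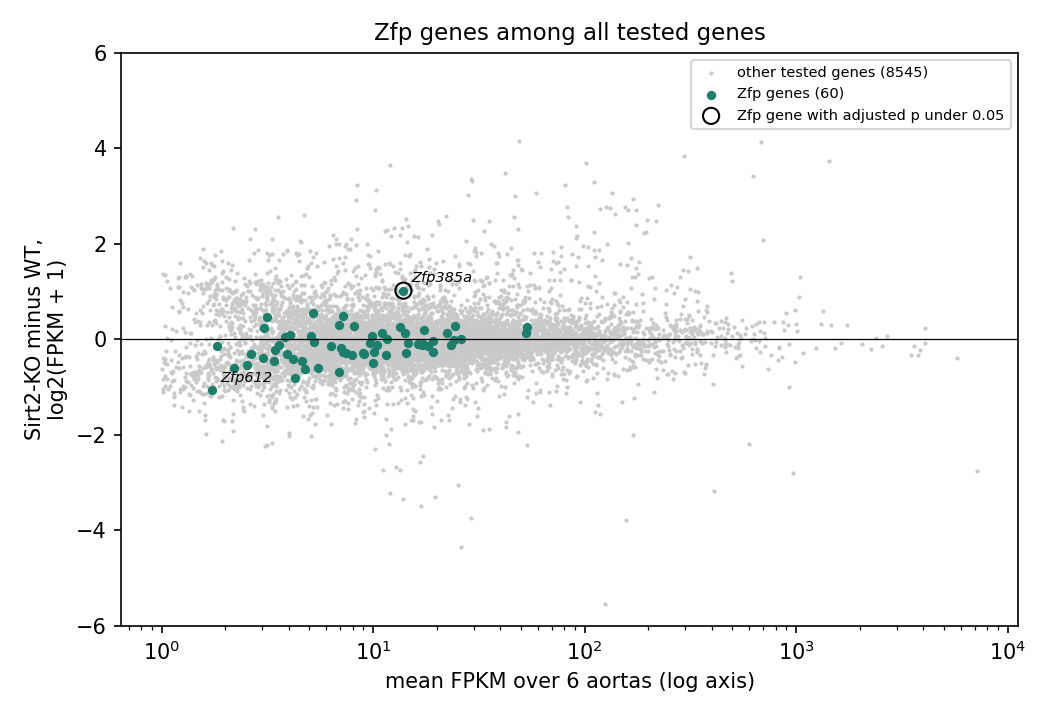
Each point is a tested gene, with its mean FPKM over 6 aortas on a log axis and its log2(FPKM + 1) difference, Sirt2-KO minus WT, on the vertical axis. The 60 Zfp genes (green) lie between -1.07 and 1.02, and only Zfp385a (ring) has an adjusted p under 0.05.

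Zfp385a is an RNA-binding zinc finger protein known as a target and partner of p53 and as a promoter of C/EBPalpha translation during fat cell differentiation. Its level was 8.35, 9.50 and 8.54 FPKM in the WT aortas (replicates 2, 4 and 8) and 15.4, 22.1 and 19.6 FPKM in the Sirt2-KO aortas (replicates 4, 7 and 8). Every Sirt2-KO aorta was above every WT aorta, and the WT values were close together. The means were 8.80 ± 0.614 and 19.0 ± 3.39 FPKM (SD, n = 3 each), and Zfp385a rose by 1.02 on the log2 scale (SE 0.156, limma adjusted p = 0.0271). The call did not hold without WT replicate 2 (adjusted p = 0.0901), WT replicate 8 (0.0637), Sirt2-KO replicate 7 (0.119) or Sirt2-KO replicate 8 (0.132), while the difference stayed between 0.79 and 1.18 under the 18 alternatives tried. The gene for C/EBPalpha, Cebpa, which is no Zfp gene and was looked up after its values had been seen, was at 34.9, 26.4 and 7.84 FPKM in the WT aortas and at 126, 120 and 181 FPKM in the Sirt2-KO aortas, also with no overlap. Cebpa rose by 2.78 on the log2 scale (limma adjusted p = 0.0378). Cebpa missed the threshold when WT replicate 2 was left out (adjusted p = 0.0624), and likewise for WT replicate 4 (0.0534) and Sirt2-KO replicates 4 (0.0674), 7 (0.134) and 8 (0.171), and with only the highest of its rows the difference was 1.44 (0.496). The summed white adipocyte markers given above were higher in the same 3 aortas. The 4 brown adipocyte markers summed to 91.6 to 905 FPKM in WT and 415 to 833 FPKM in Sirt2-KO, which overlapped. The part of fat cell content in the Zfp385a difference was not tested.

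The promoters of Zfp385a are shown because this gene alone passed the test, and those of Zfp180 and Zfp445 because they are the listed promoters among the 4 lower genes with the smallest p. Each is 300 bases from RefSeq on GRCm38.p6, 5′ to 3′ on the gene's strand, from 250 bases before to 50 bases after the start given in that table. The start listed for Zfp445 is also the start of a GENCODE M21 transcript, while that of Zfp180 and the upstream one of Zfp385a match none of that annotation. Capitals mark GC boxes (GGGCGG, or CCGCCC on the other strand) and CCAAT boxes (CCAAT, or ATTGG on the other strand); where capitals run on, an ATTGG is followed directly by a GGGCGG without overlap. The 2 Zfp385a promoters lie at chr15:103340037-103340336 and chr15:103334289-103334588 (both minus strand), that of Zfp180 at chr7:24081647-24081946 (plus strand) and that of Zfp445 at chr9:122865957-122866256 (minus strand).
Zfp385a promoter 1: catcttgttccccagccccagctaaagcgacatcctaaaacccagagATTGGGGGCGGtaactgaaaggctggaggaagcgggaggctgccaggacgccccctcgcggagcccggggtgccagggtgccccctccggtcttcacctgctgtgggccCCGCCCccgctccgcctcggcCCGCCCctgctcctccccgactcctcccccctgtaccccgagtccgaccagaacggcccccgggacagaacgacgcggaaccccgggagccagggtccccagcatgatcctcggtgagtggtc
Zfp385a promoter 2: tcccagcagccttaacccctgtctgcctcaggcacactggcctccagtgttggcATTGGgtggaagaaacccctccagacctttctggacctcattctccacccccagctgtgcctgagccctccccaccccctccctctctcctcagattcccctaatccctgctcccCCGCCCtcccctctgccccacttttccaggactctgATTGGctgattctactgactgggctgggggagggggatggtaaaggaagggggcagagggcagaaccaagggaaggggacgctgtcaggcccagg
Zfp180 promoter: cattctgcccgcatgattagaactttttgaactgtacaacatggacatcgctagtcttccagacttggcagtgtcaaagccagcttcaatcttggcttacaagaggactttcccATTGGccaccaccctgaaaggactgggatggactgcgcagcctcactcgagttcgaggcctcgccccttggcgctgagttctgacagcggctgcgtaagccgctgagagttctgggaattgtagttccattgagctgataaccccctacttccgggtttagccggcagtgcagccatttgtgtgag
Zfp445 promoter: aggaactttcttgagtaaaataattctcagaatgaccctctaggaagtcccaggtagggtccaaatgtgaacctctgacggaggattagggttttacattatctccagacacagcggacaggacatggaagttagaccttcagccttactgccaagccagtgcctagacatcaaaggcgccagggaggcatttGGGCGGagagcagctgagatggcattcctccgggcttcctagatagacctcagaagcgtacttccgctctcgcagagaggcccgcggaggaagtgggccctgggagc

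The upstream Zfp385a promoter holds 23 CpG, 3 GC boxes and 1 CCAAT box, and the downstream one holds 2 CpG, 1 GC box and 2 CCAAT boxes. The Zfp180 promoter holds 12 CpG and 1 CCAAT box, and the Zfp445 promoter 10 CpG and 1 GC box. Promoters were listed for 47 of the 60 Zfp genes. By the first promoter listed for each gene, 29 of these (61.7%) held a GC box, against 67% of the listed tested genes and 35.9% of all 27025 listed genes. A CCAAT box was found in 22 (46.8%, tested genes 37.7%, all 37.9%), TATAAA on either strand in 5 (10.6%, tested genes 7.49%, all 14.2%), and the E-box CACGTG in 2 (4.26%, tested genes 10.1%, all 7.24%). The median CpG count was 18 in the Zfp promoters, 21 in the promoters of tested genes and 7 in those of all listed genes.

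The Zfp genes with the next smallest p were lower in Sirt2-KO, and none of them passed the test. Zfp707, a KRAB zinc finger gene, was at 7.02, 5.42 and 4.82 FPKM in the WT aortas and 3.36, 2.48 and 2.64 FPKM in the Sirt2-KO aortas, a log2 difference of -0.81 (SE 0.218, limma adjusted p = 0.0927). Zfp180, with 12 fingers and no KRAB box found, was at 7.5, 9.32 and 9.27 FPKM in the WT aortas and 6.52, 3.66 and 5.17 FPKM in the Sirt2-KO aortas, a difference of -0.69 (SE 0.213, adjusted p = 0.12). In both genes every Sirt2-KO value was below every WT value, by little for Sirt2-KO replicate 4 in Zfp180. Zfp445, a KRAB and SCAN protein known in mouse for keeping imprints, was at 4.66, 5.78 and 7.57 FPKM in the WT aortas and 3.36, 3.26 and 3.90 FPKM in the Sirt2-KO aortas, a difference of -0.62 (SE 0.214, adjusted p = 0.147). Zfp612, another KRAB gene, was at 2.03, 3.48 and 2.60 FPKM in the WT aortas and 1.12, 0.533 and 0.624 FPKM in the Sirt2-KO aortas, a difference of -1.07 (SE 0.373, adjusted p = 0.147). Zfp612 had the lowest mean of the 60 (1.73 FPKM), and its groups also lay apart. With sample weights estimated by limma (arrayWeights), Zfp707 (-0.92, adjusted p = 0.0277) and Zfp180 (-0.89, adjusted p = 0.0335) passed as lower. Zfp180 passed under none of the other 17 alternatives and Zfp707 under none of the other 16 run on it, since a minimum mean of 5 FPKM left Zfp707 out.

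Among the other genes whose groups lay apart was the DNA-binding factor Zfp410, known as an activator of the chromatin remodeller gene Chd4. Zfp410 was at 8.36, 8.32 and 8.15 FPKM in the WT aortas and 7.69, 6.13 and 6.16 FPKM in the Sirt2-KO aortas, a log2 difference of -0.28 (limma adjusted p = 0.263). Chd4 was at 47.6, 53.5 and 51.6 FPKM in the WT aortas and 37.9, 42.3 and 39.9 FPKM in the Sirt2-KO aortas, also apart and also short of the threshold (-0.34, adjusted p = 0.125). These values sum 4 rows, and with only the highest row the Chd4 difference was -0.06 (limma adjusted p = 0.886). Zfp384, which binds A-rich promoter sequences of matrix genes, was at 8.95, 9.50 and 8.41 FPKM in the WT aortas and 6.33, 6.54 and 8.0 FPKM in the Sirt2-KO aortas (-0.33, adjusted p = 0.215). Here Sirt2-KO replicate 8 lay close to the lowest WT value. Zfp365, known from genome stability and neuronal studies, was at 5.95, 5.98 and 8.65 FPKM in the WT aortas and 4.92, 4.39 and 3.22 FPKM in the Sirt2-KO aortas (-0.60, adjusted p = 0.160). The remaining lower genes with groups apart were Zfp467 (-0.29), Zfp52 (-0.45) and Zfp330 (-0.26), with adjusted p-values of 0.242, 0.281 and 0.283. In the higher direction, Zfp579 was at 4.78, 4.4 and 2.89 FPKM in the WT aortas and 6.83, 5.09 and 7.05 FPKM in the Sirt2-KO aortas (0.55, adjusted p = 0.190). Zfp36l2, the RNA decay factor, was at 48.3, 51.7 and 46.0 FPKM in the WT aortas and 53.9, 59.5 and 60.8 FPKM in the Sirt2-KO aortas (0.25, adjusted p = 0.215). Neither passed the test.

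**Figure D2:**
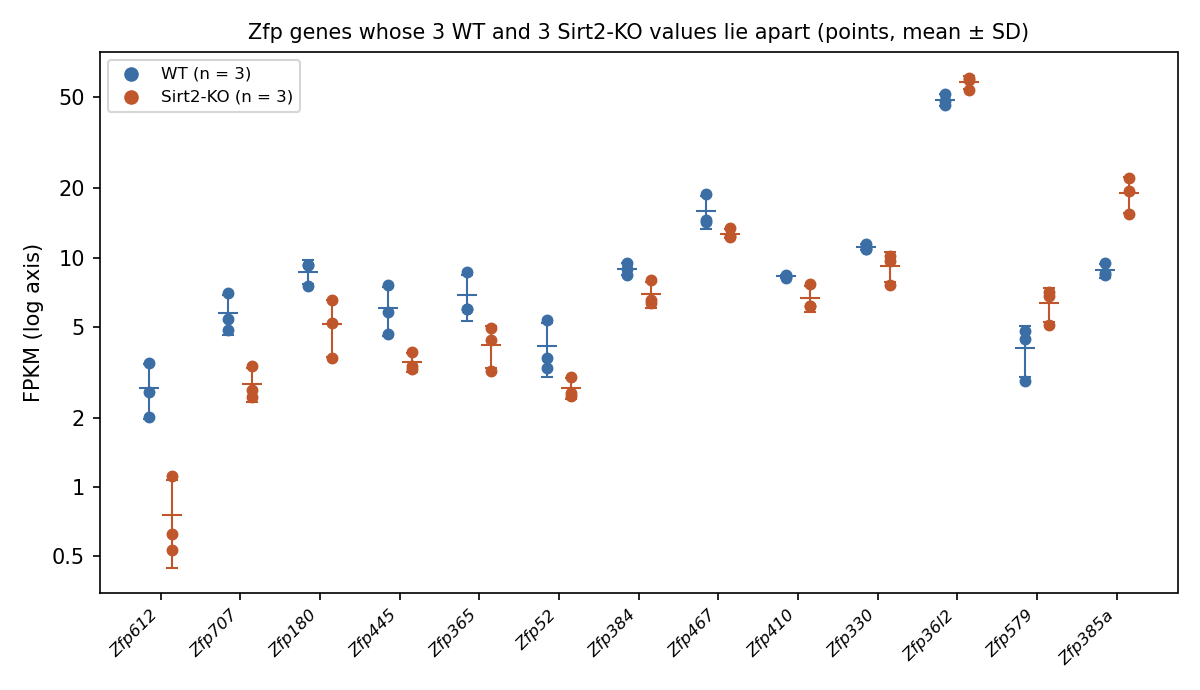
FPKM on a log axis in each aorta for the 13 Zfp genes whose WT (blue) and Sirt2-KO (orange) values do not overlap, with mean ± SD (n = 3 each). Zfp385a, Zfp36l2 and Zfp579 are higher in Sirt2-KO, the other 10 are lower, and Zfp385a alone passed the test.

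The Zfp genes were of low to moderate level in the aorta. Their means had a median of 8.04 FPKM, against 14.4 FPKM over all tested genes, and ran from 1.73 to 53.4 FPKM. There were 7 genes at 20 FPKM or more, and 18 were under 5 FPKM. The highest were the pair of RNA decay factors, Zfp36l2 (53.4 FPKM) and Zfp36l1 (53.1 FPKM). Zfp36l1 was at 55.6, 36.2 and 61.9 FPKM in the WT aortas and 52.0, 62.0 and 51.2 FPKM in the Sirt2-KO aortas, so its groups overlapped, with WT replicate 4 alone well below the rest. They were followed by Zfp771 (25.9 FPKM), Zfp703 (24.4), Zfp706 (24.01), Zfp651 (23.4), Zfp219 (22.5), Zfp207 and Zfp362 (19.3 each) and Zfp740 (18.2). In these 8 genes the groups overlapped, with log2 differences from -0.26 in Zfp207 to 0.27 in Zfp703. The related decay factor gene Zfp36, left out of the 60 by the rule, was at 13.1, 22.2 and 19.3 FPKM in the WT aortas and 15.8, 16.4 and 15.4 FPKM in the Sirt2-KO aortas (-0.16, limma adjusted p = 0.602).

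No Zfp gene in the table had a mean under 1 FPKM, so none lay just outside that minimum, and the genes just inside it were Zfp612 (1.73 FPKM) and Zfp87 (1.82 FPKM). Another limit had acted before deposit: no row of the whole table had a variance over the 6 aortas under 1.00003, and 47 of the 86 rows of Zfp genes had a variance under 2. A Zfp gene of low level is therefore in the table only where it varied between aortas. Among the genes with groups apart, the variance was close to that lowest value in the single rows of Zfp410 (1.11), Zfp52 (1.11) and Zfp612 (1.39). It was also close in a row of Zfp384 (1.02), and further rows of Zfp384, Zfp445 and Zfp467 had 1.46 to 1.62. A difference between the genotypes adds to the variance, so the separation of these genes is not independent of this limit. RefSeq lists 396 coding genes with a name of this form. The table holds 60 of them (15.2%), against 35.9% of all coding genes, and the other 336 were not analysed here. Among the 25 Zfp genes at 10 FPKM or more, 14 were below 0 with a median log2 difference of -0.04 (all tested genes of that level, 55.9% and -0.05). Among the 35 under 10 FPKM, 25 were below 0 with a median of -0.26 (all tested genes of that level, 61.4% and -0.17).

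The Zfp genes also varied between single aortas of the same genotype. The coefficient of variation (SD over mean, n = 3) had a median of 17.2% in WT, from 1.36% in Zfp410 to 60.1% in Zfp672, and of 13.7% in Sirt2-KO, from 0.408% in Zfp664 to 84.7% in Zfp87. The highest of the 6 values was in WT replicate 8 for 20 Zfp genes (33.3%, all tested genes 24.3%) and in WT replicate 2 for 4 (6.67%, all tested genes 6.75%). The lowest was in Sirt2-KO replicate 8 for 22 Zfp genes (36.7%, all tested genes 33.4%) and in WT replicate 8 for 5 (8.33%, all tested genes 19.5%). Summed over the 60 genes, the level was 651.2, 655.6 and 725 FPKM in the WT aortas and 693, 671.4 and 627.6 FPKM in the Sirt2-KO aortas, so the groups overlapped. Leaving out WT replicate 8 put 32 of 60 below 0 with a median of -0.02, and leaving out WT replicate 4 put 43 of 60 below 0. Other scalings of the table gave 37 to 41 of 60.

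**Figure D3:**
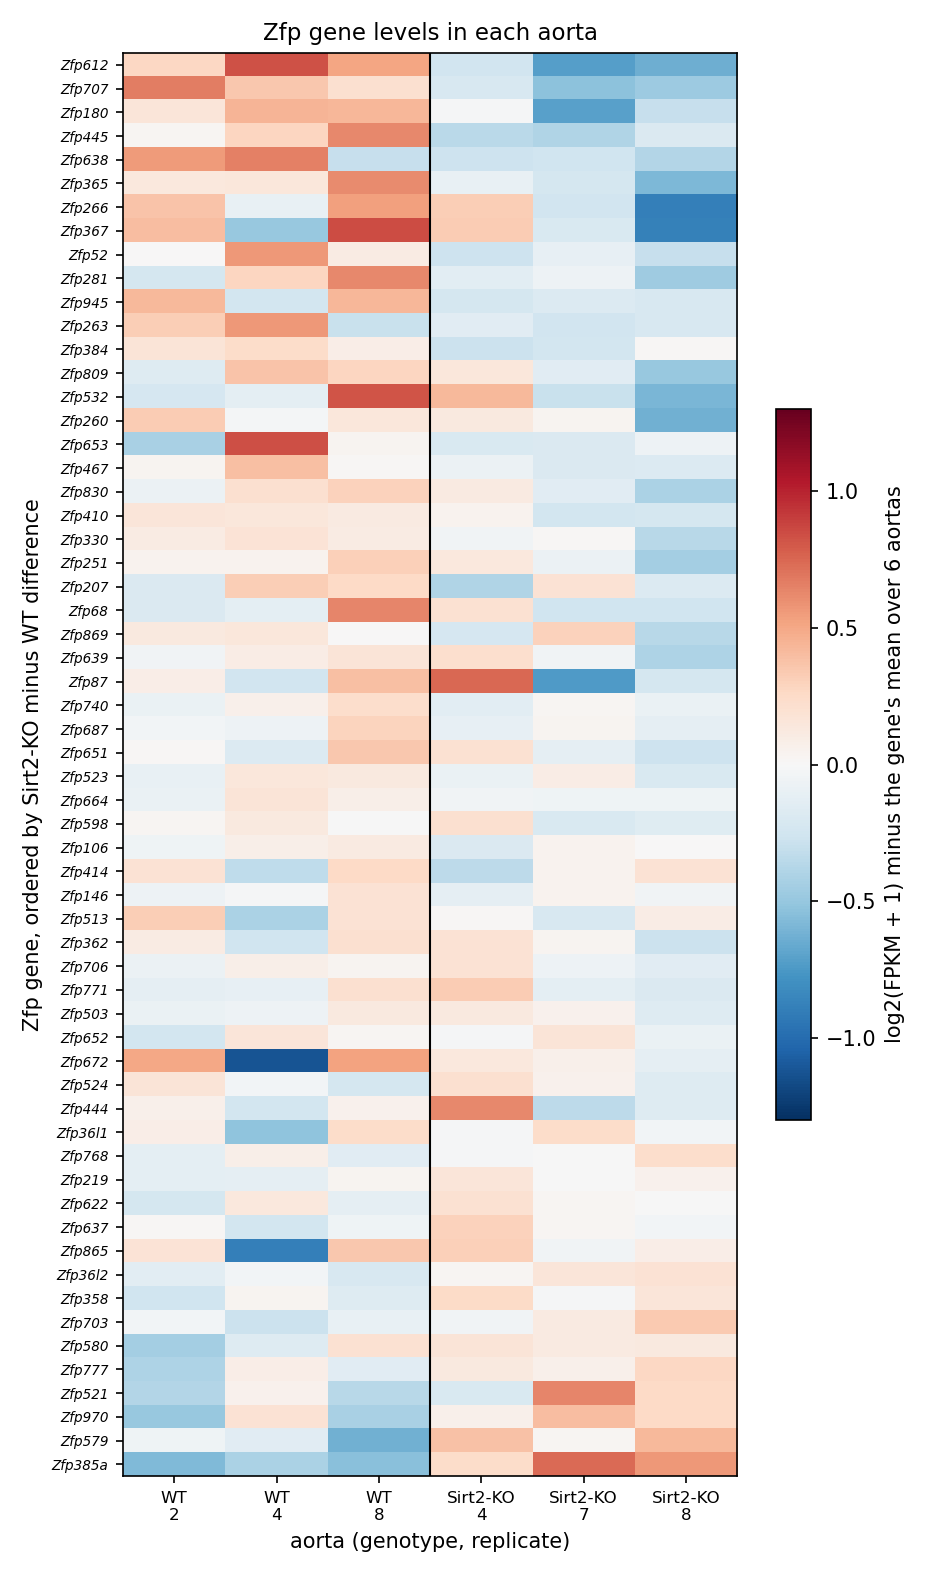
Colour gives log2(FPKM + 1) in each of the 6 aortas (columns) minus the mean of the 6, for each of the 60 Zfp genes (rows), on a scale from -1.3 to 1.3. The top and bottom rows differ between the 3 WT and 3 Sirt2-KO columns, while in most rows between them the groups overlap, as in 47 of 60 genes.

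The Zfp genes were then read by known role, beginning with fat cells. Of 8 Zfp genes known from fat cell fate, 4 were tested and 1 passed, the Zfp385a already described (all tested genes 2.91%). Their median log2 difference was 0.08. Zfp521, which holds back fat cell commitment in mouse, was at 2.09, 3.16 and 2.12 FPKM in the WT aortas and 2.49, 5.23 and 3.80 FPKM in the Sirt2-KO aortas (0.46, limma adjusted p = 0.361). Zfp467, which favours fat over bone cell fate, was at 14.5, 18.9 and 14.3 FPKM in the WT aortas and 13.4, 12.3 and 12.4 FPKM in the Sirt2-KO aortas. The groups overlapped for Zfp521 and lay narrowly apart for Zfp467. The Zfp467 values sum 4 rows, in each of which the groups overlapped. With only the highest row the Zfp467 difference was -0.15 (limma adjusted p = 0.799). Zfp638, an RNA-binding cofactor of fat cell differentiation, was at 3.47, 3.78 and 1.47 FPKM in the WT aortas and 1.54, 1.55 and 1.34 FPKM in the Sirt2-KO aortas (-0.60, adjusted p = 0.321), with WT replicate 8 among the Sirt2-KO values.

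Of 11 genes for RNA binding, RNA processing or translation, 8 were tested and 1 passed, again Zfp385a (all tested genes 2.91%). Their median was 0.02. Besides those already described, Zfp598, the ubiquitin ligase that marks collided ribosomes, was at 16.4, 17.7 and 16.1 FPKM in the WT aortas and 18.7, 14.0 and 14.4 FPKM in the Sirt2-KO aortas. Its groups overlapped, as did those of the ribosome assembly factor Zfp622 (0.14) and of the RNA-binding protein Zfp106 (-0.09). Of 5 genes for chromosome segregation or DNA repair, 3 were tested and 0 passed by limma (median -0.29). They were Zfp207, a spindle factor that loads Bub3 (-0.26), Zfp830 (-0.29) and Zfp365. Of 12 general promoter and chromatin factors, 4 were tested and 0 passed (median -0.31): Zfp281, a pluripotency factor (-0.45), Zfp384, Zfp410 and Zfp687 (-0.13). Of 7 heart and vessel genes, 4 were tested and 0 passed (median 0.20): Zfp260, an endothelin-responsive heart factor (-0.30), Zfp703 (0.27), Zfp36l1 (0.13) and Zfp580 (0.27).

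Retroelement silencing and imprint maintenance were represented together by 2 tested genes of 12, and 0 passed by limma. They were Zfp445, described above, and Zfp809, which silences murine leukaemia virus copies. Zfp809 was at 9.90, 14.9 and 13.9 FPKM in the WT aortas and 12.6, 10.1 and 7.74 FPKM in the Sirt2-KO aortas, with overlapping groups (-0.32, adjusted p = 0.373). A sequence pattern for the KRAB box was found in the longest reading frames of 13 of the 60 genes, called KRAB genes here. The pattern can miss a box, so the other 47 are not shown to lack one. Of the 13 KRAB genes, 11 were below 0, with a median log2 difference of -0.32. Among the 47 in which the pattern was not found, 28 were below 0, with a median of -0.07. In the KRAB group 0 passed by limma (all tested genes 2.91%), 3 had an unadjusted p under 0.05 (Zfp707, Zfp445 and Zfp612, 23.1%, all tested genes 24.8%), and 4 had groups apart and lower (30.8%, all tested genes 17.3%). The exceptions above 0 were Zfp970 (0.49) and Zfp777 (0.31). The KRAB genes were of low level, 12 of 13 under 10 FPKM, with a median of 4.29 FPKM against 10.003 FPKM for the others, and the part of level in their difference was not tested. Across the fits with an aorta left out, the KRAB median ran from -0.43 without Sirt2-KO replicate 4 to -0.16 without Sirt2-KO replicate 8. The KRAB genes below 0 were 9 of 13 without WT replicate 8. A minimum mean of 5 FPKM left 5 KRAB genes, 3 of them below 0, with a median of -0.19. The genes in which the pattern was not found had a median of -0.07 at that minimum. Of all tested genes under 10 FPKM, 61.4% were below 0, with a median of -0.17.

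**Figure D4:**
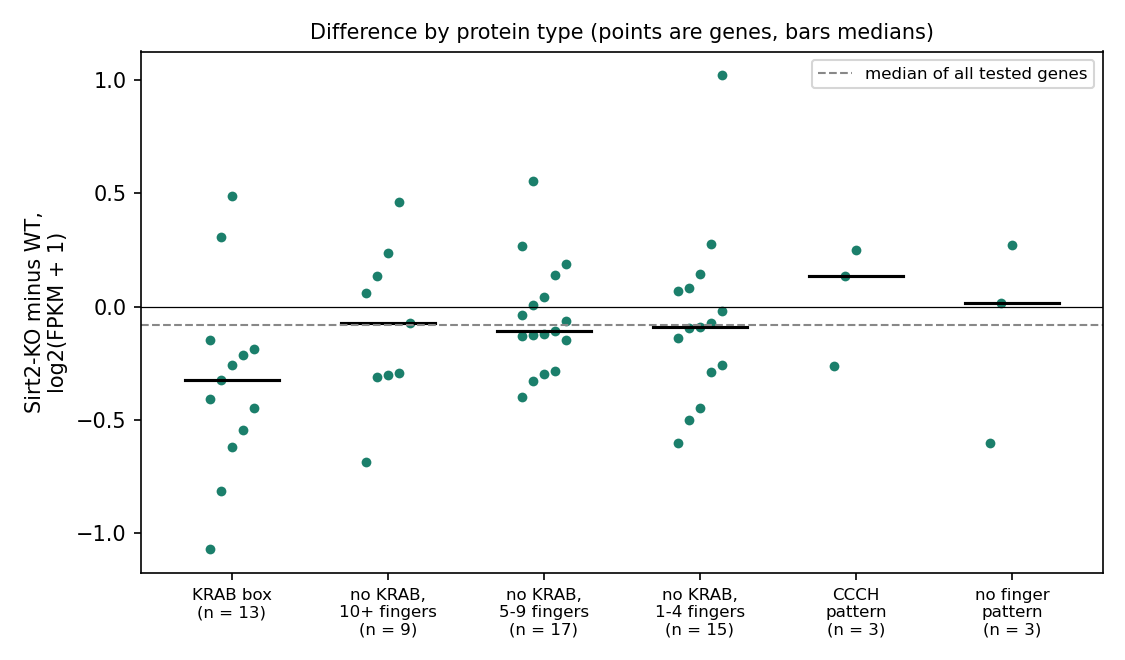
Log2(FPKM + 1) difference, Sirt2-KO minus WT, of each of the 60 Zfp genes, grouped by sequence patterns found in the protein. The 13 genes with the KRAB pattern have a median of -0.32, and 11 lie below 0. The medians of the other groups, in which that pattern was not found, lie between -0.11 and 0.13.

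Over all 60 genes, the median was -0.26 in the 17 with 10 or more C2H2 fingers, -0.12 in the 22 with 5 to 9 and -0.09 in the 15 with 1 to 4. Without the KRAB genes, the median was -0.07 in the 9 genes with 10 or more, -0.11 in the 17 with 5 to 9 and -0.09 in the 15 with 1 to 4, since no KRAB gene had so few. The 3 genes in which the CCCH pattern was found and C2H2 fingers were not (Zfp330, Zfp36l1 and Zfp36l2) had a median of 0.13. The most fingers, 28, were found in Zfp521, and Zfp385a had 3.

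Genes for the partners of KRAB proteins were described in the same way. Of 45 genes for KRAB corepressors and the silencing machinery, 25 were tested and 0 passed by limma (all tested genes 2.91%), with 5 at an unadjusted p under 0.05 (20%, all tested genes 24.8%) and a median log2 difference of -0.18. The 25 differences ran from -0.53 to 0.45, and 19 were below 0 (76.0%, all tested genes 57.9%). The groups lay apart and lower in 10 (40.0%, all tested genes 17.3%) and apart and higher in 2 (8%, all tested genes 16.0%). Trim28, the corepressor that KRAB boxes bind, was at 38.6, 37.8 and 42.0 FPKM in the WT aortas and 37.5, 33.0 and 30.7 FPKM in the Sirt2-KO aortas (-0.22, adjusted p = 0.276). Every Sirt2-KO value was below every WT value, though Sirt2-KO replicate 4 only just. Setdb1, the methyltransferase, had a difference of -0.40 (adjusted p = 0.384) with overlapping groups. Of 60 tested genes picked by the names of other zinc finger families, 0 passed by limma. In this set 3 (5%, all tested genes 24.8%) had an unadjusted p under 0.05 and 45 (75%, all tested genes 57.9%) were below 0, with a median of -0.14. Their groups lay apart and lower in 11 (18.3%, all tested genes 17.3%) and apart and higher in 1 (1.67%, all tested genes 16.0%). The 11 genes with a Zbtb name, an opposite-strand transcript among them, had a median of -0.26. The 12 Klf and Sp genes had -0.13, the 6 Zkscan and Zscan genes -0.24, and the 3 Zfhx and Zeb genes -0.27. Medians above 0 were found in the 2 genes of the Egr and Wt1 group (0.24) and the 2 of the Gli and Zic group (0.31).

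Of the 60 Zfp genes, 44 had 1 row in the table and 16 had several, up to 4. The rows carry no transcript identifiers. With each row fitted singly, an alternative chosen after the data had been seen, 0 of 81 tested Zfp rows passed by limma, against 0.851% of all tested rows. In 13 genes at least 2 rows were tested, and in 10 of these the rows had differences of both signs. The highest row was the same in every aorta in 5 of the 16 genes (Zfp106, Zfp219, Zfp362, Zfp367 and Zfp637) and differed between aortas in 11. In Zfp740 the row differences ran from -1.14 to 0.27, in Zfp384 from -0.71 to 0.53, and in Zfp672 from -0.76 to 0.16. The highest Zfp809 row was at 6.2, 9.64 and 9.71 FPKM in the WT aortas and 4.07, 6.62 and 2.51 FPKM in the Sirt2-KO aortas (-0.87, adjusted p = 0.274), and another row of Zfp809 had a difference of 0.12. Zfp385a had a single row, so its difference was the same (1.02), but it missed the threshold when the table was not summed by name (adjusted p = 0.0668).

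**Figure D5:**
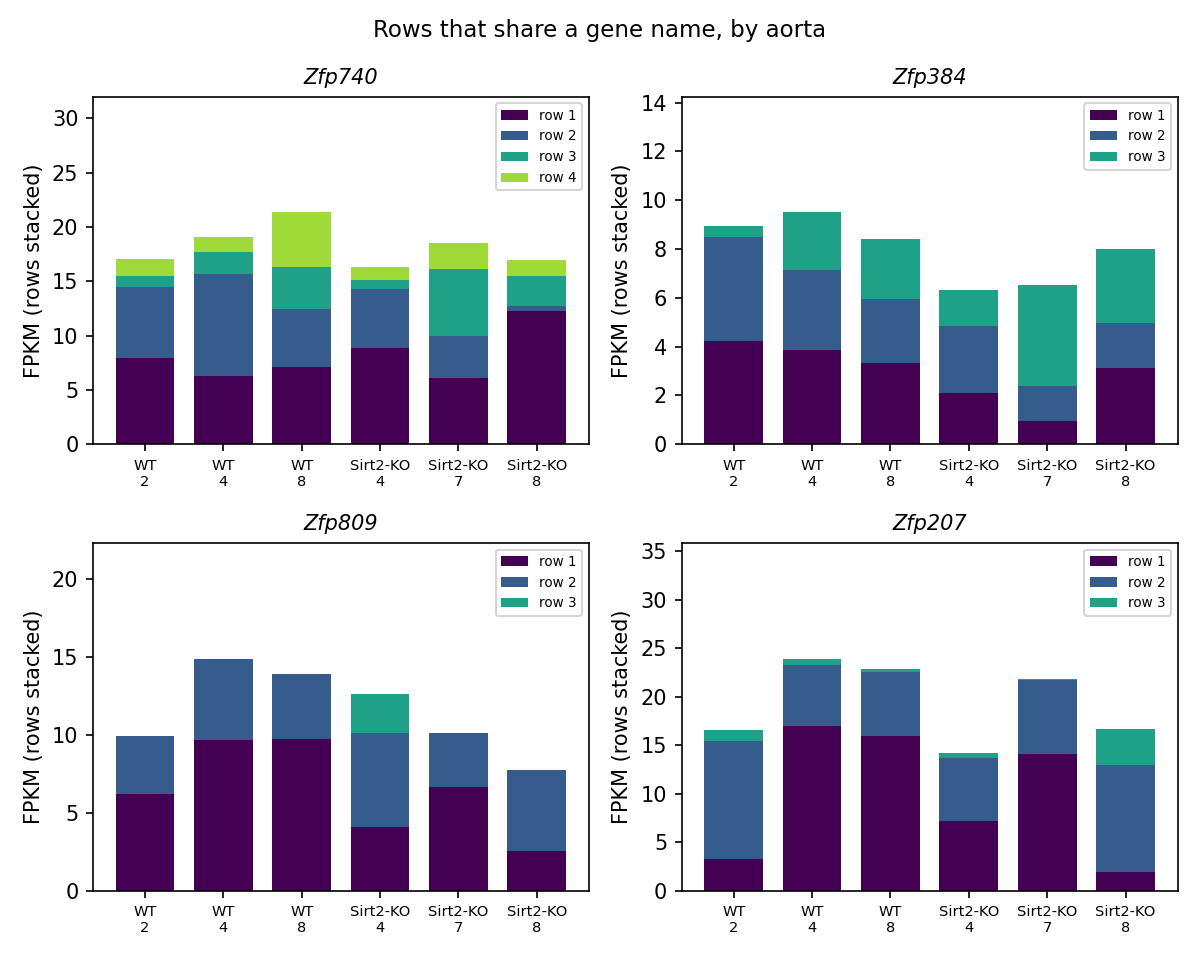
Stacked FPKM of the rows that share a gene name, in each of the 6 aortas, for Zfp740, Zfp384, Zfp809 and Zfp207, with rows numbered by mean level. The share of each row differs between aortas of the same genotype, as in Zfp207, where row 1 is small in WT replicate 2 and Sirt2-KO replicate 8.

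Some Zfp genes are neighbours in the GRCm38 annotation. On chromosome 7, Zfp579, Zfp524, Zfp865 and Zfp580 lie with at most 1 coding gene between each and the next, and their log2 differences were 0.55, 0.07, 0.24 and 0.27, all above 0 and none called. Zfp524 was below 0 without WT replicate 8 (-0.0307) or Sirt2-KO replicate 4 (-0.0219), and Zfp865 without WT replicate 4 (-0.15). Zfp260 and Zfp146 lie 37 and 39 coding genes from Sirt2 on the same chromosome and had differences of -0.30 and -0.07. Zfp180 lies 145 coding genes from Sirt2. Zfp771 and Zfp768, with 3 genes between them, had differences of 0.01 and 0.13. On chromosome 6, Zfp777 and Zfp467, with 2 genes between them, differed in sign (0.31 and -0.29).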

How the data were processed

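Total RNA of 6 aortas was sequenced, and the authors deposited FPKM values, 1 column per sample, per the file headers. The submitters' processing notes name Bowtie 0.12.2 and mm9, and the sources used here give no quantifier or annotation. There are 14083 rows and no counts, so depth is unknown and no counting interval is given. The 39 rows with a date as name were left out, and rows sharing 1 of the 8690 names were summed.

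A mean of 1 FPKM or more left 8605 genes for a two-sided test on log2(FPKM + 1). The tool was limma 3.58.1 under R 4.3.3, with lmFit and with eBayes allowing a trend. P-values were adjusted by Benjamini-Hochberg across the 8605 genes and called under 0.05. The pseudocount of 1 makes differences understate the change of low genes. The design text gives 3 mice per group. Members, lists and tests were chosen with earlier results of these data known. Role lists and markers are described by counts and medians only. Genes were named if they passed, had groups apart, ranked among the 10 highest, belonged to a role list, lay nearest the 1 FPKM minimum or had the widest spread of rows. A further 9 Zfp genes and 5 other genes, named as exceptions, extremes, neighbours or partners, were chosen after their values were seen. Protein features came from the longest reading frames of GENCODE M21 transcripts, with KRAB and SCAN patterns loosened after their hits were seen. GRCm38 was used for names, chromosomes and neighbours, and RefSeq GRCm38.p6 for promoters. The fit was tested on simulated data. The 18 alternatives changed the pseudocount, the filter, the scaling, the choice of rows, the variance model or the sample weights, added a replicate block or left out an aorta.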

Additional observations from a re-analysis of the deposited data

How the results depend on the processing

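Of 18 alternatives, 13 kept the Zfp385a call and 17 the Sirt2 call. Cebpa missed the threshold with no trend in the spread (adjusted p = 0.0536). With only the highest row per gene, 151 genes of the whole table passed, in place of 250. With arrayWeights, 1114 passed, with 3 Zfp genes, 2 of them lower. Leaving out 1 aorta gave 28 to 342 genes in all (71 when WT replicate 2 was dropped, 148 for WT replicate 8, 28 for Sirt2-KO replicate 7, 29 for Sirt2-KO replicate 8), with 0 to 1 Zfp genes called and 0 to 1 called higher. The replicate block used the shared numbers 4 and 8, whose deviations from the group means correlated at -0.0493 and -0.452. The labels do not say whether a shared number links mice of both groups, and these correlations cannot settle it. With the block 3 genes passed by limma, 0 of them Zfp genes (0 higher). Zfp385a was then at 0.88 (adjusted p = 0.531) and Sirt2 at -3.63 (adjusted p = 0.0792).

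Of 44 Zfp genes named in the text, 13 changed sign somewhere, none of them called. With the highest row these were Zfp106 (0.000101), Zfp687 (0.47) and Zfp740 (0.27), with median-of-ratios scaling Zfp362 (0.0247) and Zfp706 (0.0453), with equal column sums Zfp771 (-0.0325), with quantile normalization Zfp87 (0.00481), with the block Zfp87 (0.19), with a pseudocount of 5 Zfp672 (-0.0141), and with arrayWeights Zfp672 (-0.11) and Zfp771 (-0.10). Leaving out 1 aorta gave -0.18 to 0.0942 in Zfp362, -0.0949 to 0.28 in Zfp36l1, -0.25 to 0.0194 in Zfp651, -0.49 to 0.34 in Zfp672, -0.12 to 0.0503 in Zfp706, -0.15 to 0.11 in Zfp771, -0.12 to 0.000621 in Zfp146, -0.0307 to 0.17 in Zfp524, -0.15 to 0.47 in Zfp865 and -0.56 to 0.19 in Zfp87. Depth limits could not be set without counts.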
